A study of Mus musculus with 17 samples.

Results

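Axon guidance ligands and receptors were taken as all mouse genes whose symbol named a class 3 to 7 semaphorin, a plexin, a neuropilin, an Eph receptor, an ephrin, a Slit, a Robo, a netrin or netrin-G, an Unc5 receptor or a Slitrk, together with Dcc and Draxin. The rule found 75 of the 18256 named genes in the table, each with 1 probe. Total RNA came from cultured neural precursors of adult mouse hippocampus, grown on poly-D-lysine and laminin in Neurobasal medium with B27, bFGF and EGF. Both growth factors were withdrawn at 0 min to start differentiation, and 1 Illumina bead array was made at each of 17 times between 0 min (proliferating cells) and 720 min. The 5 arrays of 420 to 720 min formed the late window, the 3 of 240 to 360 min the middle window, the 4 of 90 to 180 min the second window and the 5 of 0 to 60 min the early window. Each time had a single array and no parallel culture kept in growth factors was analysed here, so neighbouring times stood in for replicates and p-values measure the spread within 1 series of arrays. The labels give no strain, sex or age beyond adult.

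Guidance molecules steer growing axons and migrating cells by attraction and repulsion. Class 3 semaphorins are secreted and act through plexins with a neuropilin as co-receptor, most other semaphorins bind plexins directly, ephrins bind Eph receptors on touching cells, Slits bind Robos, and netrins attract through Dcc and repel through Unc5 receptors. Draxin is a secreted repellent that binds both Dcc and netrin-1, and in mice it has been studied in the spinal cord, the forebrain commissures and the dentate gyrus.

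Draxin and the plexin gene Plxnb3 both rose through the series, and Plxna2 and the co-receptor gene Nrp1 were higher together in its middle. The 250 bases before the transcript start of these 4 genes are printed 5′ to 3′ from the RefSeq promoter table of GRCm38.p6, which held 65 of the 75 genes, because they are the stretches nearest to the starts of the genes on which the results turn. Capitals mark matches on either strand to the motifs searched, which were the GC box GGGCGG, the E-boxes CAGCTG and CACGTG, the CRE core TGACG, the FOXO site GTAAACA and the TATA core TATAAA. No marked matches overlapped.
Draxin, chr4:148130699-148130948, minus strand: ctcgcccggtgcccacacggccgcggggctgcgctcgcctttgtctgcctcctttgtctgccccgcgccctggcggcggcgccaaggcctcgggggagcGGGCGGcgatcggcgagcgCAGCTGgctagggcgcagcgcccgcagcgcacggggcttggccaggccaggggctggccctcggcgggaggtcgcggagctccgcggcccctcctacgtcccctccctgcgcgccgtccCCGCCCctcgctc
Plxnb3, chrX:73756853-73757102, plus strand: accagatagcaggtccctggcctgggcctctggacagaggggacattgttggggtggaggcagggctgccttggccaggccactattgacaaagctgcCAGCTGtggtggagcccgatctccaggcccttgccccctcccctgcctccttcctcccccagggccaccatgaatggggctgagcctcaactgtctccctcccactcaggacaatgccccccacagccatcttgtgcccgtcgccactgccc
Plxna2, chr1:194619579-194619828, plus strand: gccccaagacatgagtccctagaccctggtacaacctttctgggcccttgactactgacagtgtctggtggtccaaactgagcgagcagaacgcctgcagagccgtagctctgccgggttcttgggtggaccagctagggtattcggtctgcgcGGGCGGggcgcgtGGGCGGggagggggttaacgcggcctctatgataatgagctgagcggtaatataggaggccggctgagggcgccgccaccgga
Nrp1, chr8:128358823-128359072, plus strand: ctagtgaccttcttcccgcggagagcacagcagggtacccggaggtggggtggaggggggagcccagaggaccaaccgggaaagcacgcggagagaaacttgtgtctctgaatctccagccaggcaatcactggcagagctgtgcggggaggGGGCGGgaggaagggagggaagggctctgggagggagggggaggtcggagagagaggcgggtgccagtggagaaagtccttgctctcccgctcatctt
Draxin held 2 GC boxes and 1 CAGCTG, Plxnb3 held 1 CAGCTG, Plxna2 held 2 GC boxes and Nrp1 held 1 GC box, and none of the 4 held any of the other motifs. Of all 32851 RefSeq windows of this length, 32.7% held GGGCGG, 13.0% CAGCTG, 6.02% CACGTG, 17.8% TGACG, 3.17% GTAAACA and 12.4% TATAAA. The Draxin stretch was 79.6% G or C, against a median of 52.4% over all windows. A start in the table is that of 1 transcript and can lie inside the longest gene model.

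Signals are the deposited log2 values, and a probe was counted as above the filter when its mean over the 17 arrays reached the median of all probe means, 6.41. Of the 75 genes 37 were above it, and the other 38 had means between 5.51 and 6.40. The filter is a rank among probes and no detection p-value was used here, so how far a low probe stood above background was not measured. Array medians lay between 6.40 and 6.42. The progenitor markers Nes, Vim and Sox2 had signals of 10.85 to 11.98, 12.94 to 13.55 and 9.00 to 10.17. Of 9 progenitor markers with a probe 7 were above the filter and 2 below. In the late against the early window 2 of the 7 rose and 2 fell, as 27.9% and 27% of all features did. All 5 microglial markers with a probe were below the filter, and so were 6 of 8 neuronal markers, among them Dcx, Tubb3 and Rbfox3. Signal is total RNA of a culture, so fewer cells of a type and less RNA per cell cannot be told apart.

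Over the time course 24 of the 37 genes changed (64.9%, against 61.9% of all 9940 features tested), by limma's moderated F test of a spline curve at a Benjamini-Hochberg adjusted p under 0.05 over all features. By the largest departure of the fitted curve from its value at 0 min, 8 rose and 5 fell without coming back by 720 min. Of all features 24.5% and 23.6% did so. Of the 37 genes 8 rose and 3 fell transiently, against 626 (6.3%) and 749 (7.54%) of all 9940 features. A change was called transient where the curve had come back past the midpoint of that departure at the last time. Among the 8 transient rises were Efnb2 and Plxna4. Each was above the filter only through the window where it was high, and both also count in the window comparisons. In the late against the early window 11 rose and 7 fell (48.6% of 37, against 54.9% of all features, 27.9% higher and 27% lower). In the middle against the early window 9 rose and 6 fell (40.5% of 37, against 35% of all features, 17% higher and 18% lower). In the second against the early window 3 rose and 2 fell (13.5% of 37, against 11.6% of all features, 5.48% higher and 6.13% lower). The median late difference was 0.03 over the 37 genes and 0.00 over all features, and the median size of the difference was 0.24 and 0.27. The late and early arrays did not overlap for 14 genes (37.8%, against 38.5% of all features). The 3 comparisons share the early arrays.

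**Figure D1:**
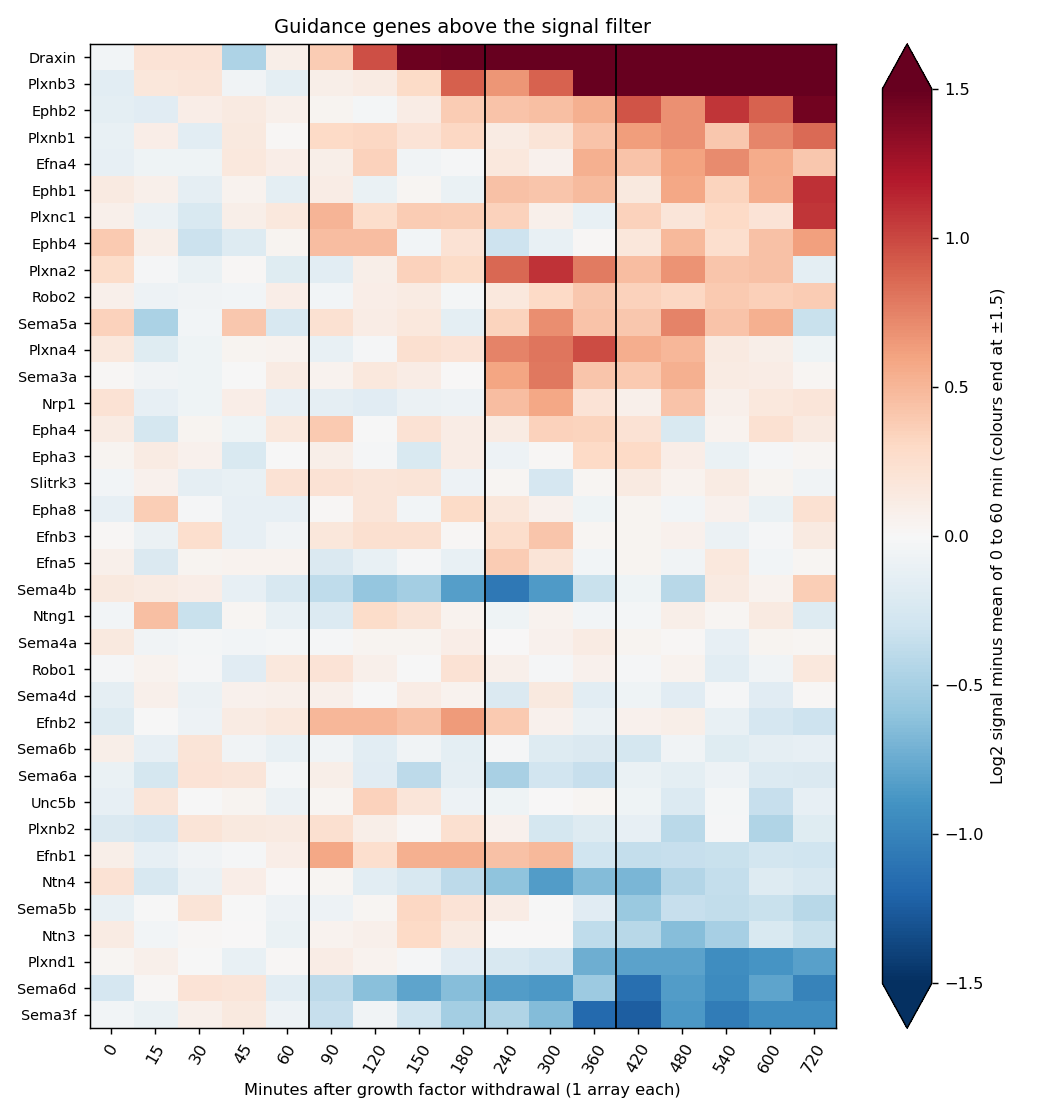
Log2 signal of the 37 guidance genes above the filter at each of 17 times (columns, in minutes) minus the gene's own mean over 0 to 60 min, ordered by the late difference, with vertical lines between the 4 windows. Draxin and Plxnb3 deepen with time at the top, Plxna2, Plxna4 and Sema3a are highest between 240 and 360 min, and Plxnd1, Sema6d and Sema3f lie at the bottom.

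Draxin, the secreted repellent, climbed in steps over nearly the whole series. Its signal was 7.20, 7.45, 7.45, 6.77 and 7.33 at 0, 15, 30, 45 and 60 min. It was 7.62, 8.21, 8.71 and 9.23 at 90, 120, 150 and 180 min. It was 9.35, 10.06 and 10.27 at 240, 300 and 360 min and 10.59, 10.66, 10.63, 10.94 and 11.14 at 420, 480, 540, 600 and 720 min. Every array from 90 min on lay above all 5 early arrays, and the 45 min array was the lowest of the series. The signal at 720 min was 15.3-fold that at 0 min. Against the early window Draxin was 1.20 higher on the log2 scale in the second window (SE 0.23, limma adjusted p = 9.27e-04), 2.65 higher in the middle (SE 0.25, adjusted p = 5.37e-08) and 3.55 higher in the late one (SE 0.22, adjusted p = 2.43e-11). The fitted curve reached its midpoint at 240 min. From the middle to the late window it rose by a further 0.90 (limma adjusted p = 0.0161), or by 0.63 without the 240 min array (adjusted p = 0.145).

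The 7 receptor genes set beside it encode receptors for Draxin or netrins and their relatives. None of them was higher than in the early window by the test in any later window. Only Neo1 passed over the time course upward, with a curve highest at 150 min. Dcc, the netrin receptor to which Draxin binds, had signals between 5.71 and 6.02, below the filter on all 17 arrays. It averaged 5.90 ± 0.06 in the late window and 5.84 ± 0.13 in the early window (SD, n = 5 times each), a difference of 0.06 (SE 0.07, limma adjusted p = 0.649 without the filter). The repulsive netrin receptor genes Unc5a and Unc5d had late differences of 0.00 and 0.02, and neither passed the test. These 3 probes were at percentiles 24.5, 43 and 14.5 of all probes by mean signal, so a change of the transcript may lie below what they can show.

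Unc5b, above the filter, was at 6.44 ± 0.13 in the late window and 6.59 ± 0.12 in the early window and did not pass over the time course (limma adjusted p = 0.166). Unc5c, just below the filter with a mean of 6.40, fell late. It was at 6.39, 6.13, 5.97, 6.02 and 6.01 at 420, 480, 540, 600 and 720 min, against 6.50, 6.50, 6.28, 6.59 and 6.41 in the early window, and the 2 sets overlapped through the 420 min array only. The difference was -0.35 (SE 0.10, limma adjusted p = 0.00611 without the filter). Unc5cl, which the rule also picks by its name, encodes an intracellular death-domain protein and not a netrin receptor, and had a late difference of 0.07 (adjusted p = 0.595). Netrin-1 (Ntn1), Epha5 and Sema3d were not analysed here. Lrp6, also chosen as a partner of Draxin, had no named probe and was not analysed either.

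Outside the families, Neo1 encodes neogenin, the close relative of Dcc, and Lrp5 encodes a Wnt co-receptor. Neo1 ranged between 9.46 at 360 min and 10.50 at 150 min. It passed over the time course (limma adjusted p = 4.75e-04), with the largest departure of the curve upward at 150 min. Its late difference of -0.22 (SE 0.12, adjusted p = 0.141) did not pass. Lrp5 passed neither test, with a late difference of -0.08. Of the 7 probes Dcc, Unc5a, Unc5c and Unc5d were below the filter and Lrp5 was close to it, so the size by which Draxin moved beyond each receptor is not given.

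**Figure D2:**
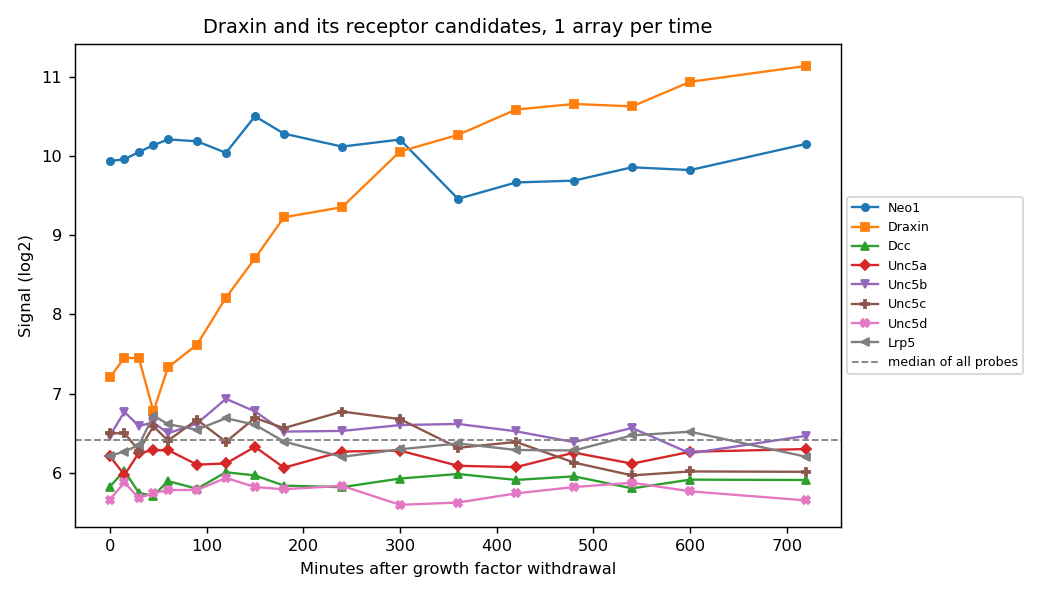
Log2 signal of Draxin and of 7 receptor genes at each of 17 times, 1 array per point, with the median of all probes as a dashed line. Draxin climbs to 11.14 at 720 min while Dcc, Unc5a, Unc5d and Lrp5 stay near or below the dashed line and Neo1 stays between 9.46 and 10.50. Heights of different probes cannot be set against each other.

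The netrins measured did not follow Draxin either. Ntn3, a netrin first described in sensory ganglia, fell, with 8.26, 8.04, 8.18, 8.45 and 8.34 in the late window against 8.80, 8.64, 8.69, 8.68 and 8.57 in the early window, and the groups did not overlap. Its difference was -0.42 (SE 0.09, limma adjusted p = 5.25e-04). Ntn4, a netrin of basement membranes, was lowest in the middle. It averaged 6.56 ± 0.20 late, 6.25 ± 0.12 in the middle window (n = 3) and 6.95 ± 0.18 early, with a middle window difference of -0.70 (limma adjusted p = 1.00e-04) and a late one of -0.38 (adjusted p = 0.00357). The netrin-G genes Ntng1 and Ntng2 encode membrane-anchored relatives that do not bind Dcc, and neither passed in any window. Ntng2, below the filter, passed over the time course (adjusted p = 0.049 without the filter), with its highest value, 6.29, at 0 min.

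Of 9 plexin genes 7 were above the filter, and all 7 changed over the time course, as 61.9% of all features did, 3 upward and 1 downward without coming back and 3 upward transiently. Among the transient ones, Plxna4 was above the filter only through the middle window. Plxnb3, a class B plexin that binds Sema5a and is known from oligodendrocytes, had the largest late rise of the 37 genes after Draxin. It was at 6.76, 7.10, 7.11, 6.87 and 6.78 at 0, 15, 30, 45 and 60 min. It was at 7.01, 7.05, 7.21 and 7.82 at 90, 120, 150 and 180 min. It was at 7.59, 7.81 and 8.62 at 240, 300 and 360 min and at 8.70, 8.54, 8.63, 8.65 and 9.01 at 420, 480, 540, 600 and 720 min. All late arrays lay above all early ones, and the curve reached its midpoint at 300 min. Plxnb3 was 3.44-fold higher in the late than in the early window (log2 difference 1.78, SE 0.16, limma adjusted p = 5.69e-09). It had the highest Pearson correlation with Draxin over the 17 arrays among the other 36 genes above the filter (r = 0.961), followed by Ephb2 (0.896), Robo2 (0.896), Plxnb1 (0.835) and Efna4 (0.749). These points share 1 time axis, and 413 of 9939 features had an r of at least 0.9 with Draxin.

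Oligodendrocyte lineage markers were also higher in the late window, as Draxin, Plxnb3, Plxnb1 and Ephb2 were. The mean signal of all 10 such markers lay between 7.94 and 8.12 on the late arrays, 7.66 and 7.93 on those of the middle window, 7.27 and 7.45 on those of the second and 7.38 and 7.48 on the early ones. Of 6 above the filter 4 rose in the late window, among them Cnp by 2.25 and Mbp by 1.39. The mature myelin genes Mog and Mag were below the filter, with late differences of -0.08 and -0.05. The 2 of 8 neuronal markers above the filter rose late as well, and the mean of all 8 lay between 7.22 and 7.29 on the late arrays and 7.04 and 7.11 on the early ones. Of 4 astrocyte markers above the filter 2 rose and 1 fell late, and the mean of all 6 lay between 6.81 and 7.25 on the late arrays and 6.25 and 6.36 on the early ones. The part of such cells in these results was not tested.

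Plxnb1, a receptor for Sema4d, rose late. It had 6.97, 7.02, 6.74, 7.07 and 7.19 in the late window against 6.23, 6.44, 6.18, 6.48 and 6.35 in the early window, with no overlap (log2 difference 0.66, SE 0.09, limma adjusted p = 1.81e-06). Plxnb2, the remaining class B plexin, had no window difference that passed and changed over the time course only (adjusted p = 0.00541), at 9.03 ± 0.18 late and 9.27 ± 0.22 early. Plxnc1, the receptor for Sema7a, averaged 8.07 ± 0.37 late and 7.65 ± 0.16 early (difference 0.42, adjusted p = 0.0106). Its last array stood apart, with 8.73 at 720 min and 7.86 at 600 min, and without it the late rise was 0.26 (adjusted p = 0.0333).

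Plxnd1, a receptor for Sema3e, was the only plexin gene that fell in the late window. It was at 8.16, 8.17, 8.03, 8.09 and 8.15 in the late window, against 9.00, 9.05, 8.96, 8.85 and 8.99 in the early window. Between them it was at 9.09, 9.03, 8.95 and 8.80 in the second and 8.73, 8.68 and 8.23 in the middle window. The step between 300 and 360 min was the largest between neighbouring times, and late and early arrays did not overlap. The late difference was -0.85 (SE 0.09, limma adjusted p = 5.49e-08). The middle window difference, -0.42 (adjusted p = 0.0029), was -0.27 and did not pass without the 360 min array (adjusted p = 0.0537). Plxnd1 is also known from endothelial cells, and all 3 of 6 endothelial and mural markers above the filter fell late. The mean of these 6 markers lay between 6.42 and 6.72 on the late arrays and 6.83 and 6.93 on the early ones, with Pecam1 and Cldn5 below the filter, and their part in the result was not tested. The ligand gene Sema3e was below the filter and was 0.30 higher in the middle window (adjusted p = 0.0137 without the filter), with a mean of 6.00.

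Sema3a and genes for its receptor complex had their highest array in the middle window. Sema3a is a secreted repellent, Nrp1 its binding co-receptor, and Plxna2 and Plxna4 are class A plexins that carry the signal into the cell. Sema3a was at 9.98, 10.18 and 9.80 at 240, 300 and 360 min, against 9.40, 9.33, 9.33, 9.38 and 9.51 in the early window. Nrp1 was at 9.78, 9.90 and 9.52 at those times, against 9.54, 9.19, 9.26, 9.43 and 9.20 early. Plxna2 was at 10.96, 11.19 and 10.88, against 10.37, 10.09, 10.00, 10.12 and 9.92 early. For Sema3a and Plxna2 the middle window lay above the early one with no overlap, and for Nrp1 the 360 min array lay below the 0 min array. Plxna4 was at 7.00, 7.06 and 7.23 in the middle window, against 6.41, 6.07, 6.18, 6.29 and 6.31 early, without overlap. It was above the filter only through that window, since its other 14 arrays averaged 6.36.

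The middle window differences were 0.91 for Plxna2 (SE 0.15, limma adjusted p = 4.89e-05), 0.84 for Plxna4 (adjusted p = 2.92e-05 in the fit without the filter), 0.60 for Sema3a (adjusted p = 1.93e-04) and 0.41 for Nrp1 (adjusted p = 0.00432). Plxna2, Sema3a and Nrp1 passed also when any 1 array was left out. Those fits kept the filter, so they are no support for Plxna4, which was above it only through this window. Of the later arrays, Sema3a was at 9.78, 9.92, 9.52, 9.50 and 9.41 and Plxna2 at 10.57, 10.77, 10.51, 10.54 and 9.95 at 420, 480, 540, 600 and 720 min. Both were back within their early range at 720 min. Plxna4 was 0.61 lower in the late than in the middle window (limma adjusted p under 0.004 in the fit without the filter). Plxna2 was 0.54 lower (adjusted p = 0.0151) and Sema3a 0.36 lower (adjusted p = 0.0262). Nrp1 was 0.23 lower and did not pass (adjusted p = 0.143), and its 480 min array, at 9.75, lay above its 360 min array. The fall of Sema3a did not pass without the 240, 300, 540, 600 or 720 min array, nor that of Plxna2 without 300 min.

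Late against early, Plxna2 was 0.37 higher (limma adjusted p = 0.0181) and Sema3a 0.24 higher (adjusted p = 0.0405). The first did not pass without the 60 min or the 480 min array, nor the second without the 0, 15, 30, 45, 420 or 480 min array. Nrp1 did not pass late (adjusted p = 0.0975), and over the time course it passed (adjusted p = 0.0299, with the largest departure of the curve downward at 60 min) but not without the 90, 300 or 480 min array. Nrp2, the co-receptor for Sema3f, was below the filter, with a middle window difference of 0.02. Plxna1 and Plxna3 were below the filter and passed no test.

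**Figure D3:**
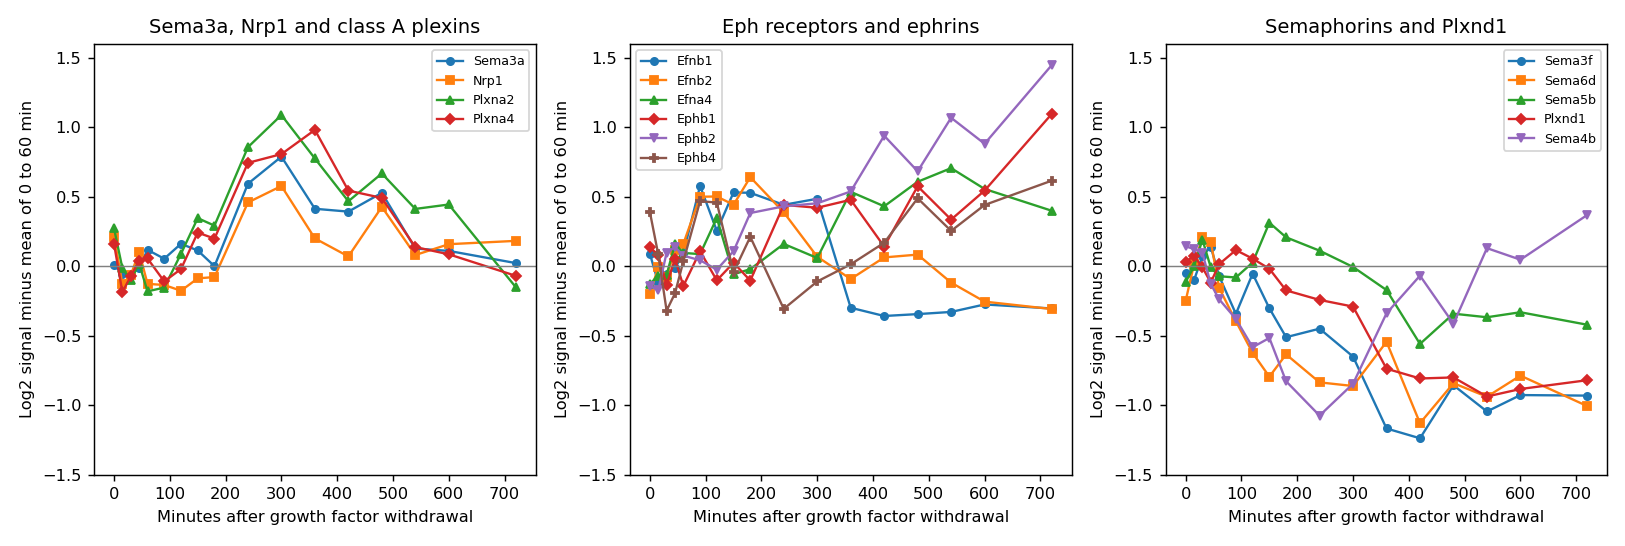
Log2 signal minus the gene's own mean over 0 to 60 min, at each of 17 times, for Sema3a with Nrp1 and class A plexins (left), Eph receptors and ephrins (middle) and semaphorins with Plxnd1 (right). The left group is highest between 240 and 360 min, Ephb2 climbs to the end while Efnb1 and Efnb2 are raised at 90 to 240 min, and Sema4b is lowest at 240 min and high again from 540 min on.

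Sema3f, Sema6d and Sema5b fell. Sema3f, a secreted repellent that uses Nrp2, was at 6.37, 6.75, 6.56, 6.68 and 6.67 in the late window, against 7.56, 7.50, 7.68, 7.74 and 7.53 in the early window. Its late difference was -0.999 (SE 0.11, limma adjusted p = 1.62e-07), with no overlap, and its midpoint was at 240 min. Sema6d, a membrane-bound ligand of Plxna1, fell sooner. It was at 8.96, 9.22, 9.42, 9.39 and 9.05 at 0, 15, 30, 45 and 60 min, 8.81, 8.59, 8.41 and 8.57 at 90, 120, 150 and 180 min, 8.37, 8.35 and 8.67 at 240, 300 and 360 min and 8.08, 8.37, 8.27, 8.42 and 8.20 from 420 min on. Every array from 90 min on lay below all early ones. Its midpoint was at 150 min, and the differences from the early window were -0.61 in the second (SE 0.11, adjusted p = 5.06e-04), -0.75 in the middle and -0.94 in the late window (adjusted p = 9.10e-08). Sema5b fell in the late window only, by 0.40 (adjusted p = 5.90e-04), to 6.84, 7.06, 7.03, 7.07 and 6.98, against 7.28, 7.40, 7.59, 7.39 and 7.33 in the early window.

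Sema4b, a membrane-bound semaphorin, dipped and came back. It was at 11.46, 11.44, 11.41, 11.19 and 11.08 in the early window and at 10.94, 10.73, 10.80 and 10.49 at 90, 120, 150 and 180 min. It was at 10.24, 10.47 and 10.98 at 240, 300 and 360 min and at 11.25, 10.90, 11.45, 11.36 and 11.69 at 420, 480, 540, 600 and 720 min. The lowest array was at 240 min and the highest at 720 min. It was 0.75 lower in the middle than in the early window (SE 0.16, limma adjusted p = 7.17e-04) and 0.77 higher in the late than in the middle (adjusted p = 0.00248), with a late difference from the early window of 0.01. Its second window fall, -0.58 (adjusted p = 0.00993), was -0.49 and did not pass without the 180 min array (adjusted p = 0.0587).

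Sema5a, a ligand of Plxnb3, passed over the time course (limma adjusted p = 0.0071) and in no window. Its early arrays spread between 8.02 and 8.91 and its late ones between 8.17 and 9.24. Sema6a was 0.38 lower in the middle window (adjusted p = 0.0121), but not without the 240 min array (adjusted p = 0.0636), and its time course call (adjusted p = 0.0269) was lost without 30, 45 or 240 min. Sema4a, Sema4d and Sema6b did not pass. Of the 9 semaphorin genes below the filter, Sema4g was 0.49 higher (adjusted p = 9.50e-05) and Sema3c 0.33 lower (adjusted p = 0.00461) in the late window without the filter. Sema3b passed over the time course only (adjusted p = 0.0426 without the filter).

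Among the ephrin receptors the 3 class B genes above the filter rose late, and the 3 class A genes above it did not pass, where 27.9% of all features rose and 27% fell. Ephb2, a receptor for ephrin-B ligands with a part in axon midline crossing and synapses, was at 7.37, 7.11, 7.50, 7.31 and 7.88 in the late window, against 6.29, 6.26, 6.53, 6.57 and 6.51 in the early window. Its middle window values, 6.86, 6.88 and 6.97, lay between the 2 sets. The late rise was 2.01-fold (log2 difference 1.00, SE 0.11, limma adjusted p = 1.43e-07), and the highest array was the last. Ephb1 was at 8.01, 8.44, 8.20, 8.41 and 8.96 late, against 8.00, 7.95, 7.73, 7.92 and 7.72 early (difference 0.54, adjusted p = 6.78e-04). The lowest late array of Ephb1 was barely above the highest early one, and its middle window rise, 0.45 (adjusted p = 0.0159), did not pass without 360 min (adjusted p = 0.0555). Ephb4, known from veins, was at 9.01 ± 0.18 late and 8.62 ± 0.27 early (difference 0.39, adjusted p = 0.0105). Its groups overlapped, and it did not pass over the time course (adjusted p = 0.066). Epha3, Epha4 and Epha8, of 8 class A receptor genes, had late differences of 0.06, 0.08 and 0.04. Whether class B and class A genes differ as groups was not tested. Epha2, below the filter, fell by 0.21 late (adjusted p = 0.0145 without the filter) and by 0.22 in the middle window (adjusted p = 0.0406). Ephb3, also below it, was 0.26 higher in the middle window (adjusted p = 0.0399 without the filter).

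The ephrin-B ligand genes Efnb1 and Efnb2, whose proteins span the membrane and bind class B receptors, rose in the second window and had come down by the late one. Efnb1 was at 9.59, 9.27, 9.55 and 9.54 at 90, 120, 150 and 180 min, against 9.11, 8.90, 8.96, 9.00 and 9.11 in the early window. It was at 9.46, 9.50 and 8.72 at 240, 300 and 360 min and at 8.66, 8.67, 8.69, 8.74 and 8.71 on the late arrays. The change between 300 and 360 min brought it below all early arrays, where it stayed. Efnb1 was 0.47 higher in the second window (SE 0.12, limma adjusted p = 0.00993) and 0.32 lower in the late window (SE 0.11, adjusted p = 0.0194) than in the early one. With the 60 min array moved to the second window these were 0.42 (adjusted p = 0.0513) and -0.30 (adjusted p = 0.0591).

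Efnb2 was at 6.87, 6.88, 6.82 and 7.01 in the second window, against 6.18, 6.36, 6.30, 6.49 and 6.53 early, with no overlap. It was above the filter only through that window, since its other 13 arrays averaged 6.36. In the fit without the filter the difference was 0.52 (limma adjusted p = 0.00218). In the late window it averaged 6.27 ± 0.18, against 6.37 ± 0.15 early, and did not pass (adjusted p = 0.398). Efna4, a lipid-anchored ephrin-A, rose late instead, with 7.24, 7.42, 7.51, 7.36 and 7.21 against 6.68, 6.74, 6.75, 6.97 and 6.90 early and no overlap (difference 0.54, SE 0.10, adjusted p = 9.53e-05). Efna5 and Efnb3 did not pass, and Efna1, Efna2 and Efna3 were below the filter with late differences of at most 0.11 in size.

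**Figure D4:**
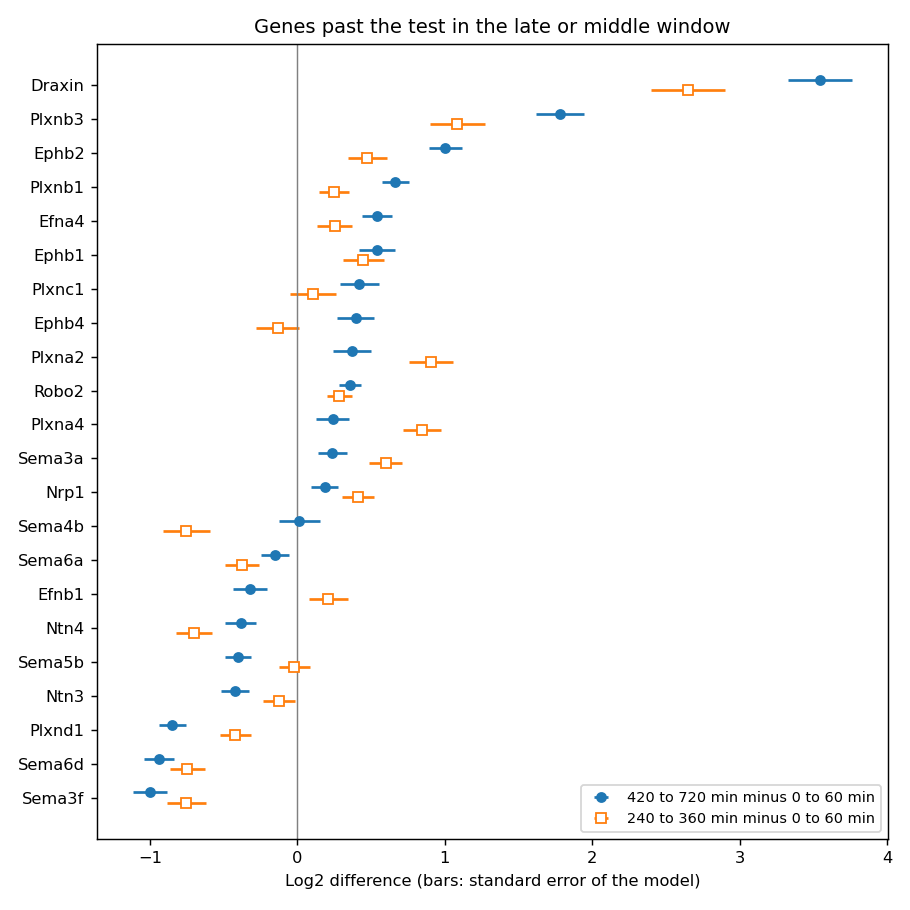
Log2 difference from the early window (0 to 60 min) for the late window (filled circles) and the middle window (open squares), with the standard error of the model as bars, for the 22 genes above the filter that passed in either. Draxin and Plxnb3 lie farther right late than in the middle window, while Plxna2, Plxna4, Sema3a and Nrp1 lie farther right in the middle window.

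Of the Robo genes, which encode Slit receptors, Robo2 rose by a small step. It was at 6.89, 6.86, 6.94, 6.92 and 6.94 late, against 6.63, 6.48, 6.50, 6.51 and 6.65 early, with no overlap (difference 0.36, SE 0.07, limma adjusted p = 3.07e-04). Its middle window rise, 0.28 (adjusted p = 0.0127), did not pass without the 360 min array (adjusted p = 0.0912). Robo1 did not pass (late difference -0.0014), and Robo3 and Robo4 were below the filter. The ligand genes Slit1, Slit2 and Slit3 were all below it. Slit2 had 5.89, 5.95, 5.76, 5.87 and 6.05 late, against 5.64, 5.73, 5.64, 5.58 and 5.48 early (difference 0.29, adjusted p = 0.00224 without the filter), at percentile 15.8 of all probes. Of 6 Slitrk genes, which encode synaptic adhesion proteins that pair with receptor tyrosine phosphatases, only Slitrk3 was above the filter, and none passed a test.

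Over all 38 genes below the filter, the range of signal over the 17 arrays had a median of 0.42, against 0.41 for all 9914 features below it. Without the filter 29 of all 75 genes passed over the time course, against 33.1% of all features. Of the 38 genes below the filter 5 did so, against 513 of all 9914 features below it (5.17%). In the late window 2 of the 38 rose and 3 fell, against 537 of the 9914 in either direction (5.42%).

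Counts of genes that act with these receptors are given beside the shares of all features in the late window, 27.9% higher and 27% lower. Of 8 partner genes with a probe (neogenin, repulsive guidance molecules, Flrt, netrin-G ligand and related genes) 6 were above the filter, and 3 rose and 1 fell in the late window. Of 14 co-receptor and protease genes 11 were above it, and 4 rose and 2 fell. Of 38 intracellular effector genes 28 were above it, and 8 rose and 11 fell. Rgma, a repellent that binds neogenin, was at 12.17 ± 0.07 late and 10.35 ± 0.29 early (SD, n = 5 times each), a difference of 1.82 (SE 0.11, limma adjusted p = 2.14e-11). Cntn1, an adhesion molecule of axons, rose by 2.24. Pak3, a kinase downstream of Rac and Cdc42, rose by 2.10, and Dpysl4, a collapsin response mediator that acts in semaphorin signalling, by 1.95. Chn2, a Rac-inactivating protein, fell by 1.15, and Fyn, a Src family kinase that acts with Dcc and class A plexins, fell by 1.04.

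Between the middle and the late window 6 of the 37 genes rose and 6 fell (32.4%, against 18.4% of all features, 9.59% higher and 8.77% lower). This count rested on single arrays of the middle window, since 4 genes passed without the 240 min array and 6 without the 300 min array. Of the 12, Ephb2 (0.53, limma adjusted p = 0.00809) and Sema4b passed whichever array was left out. Plxna4 did so in fits that kept the filter, which it met only through the middle window, so this is no support for it.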

How the data were processed

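The deposited table holds log2 signals of 19949 Illumina probes on 17 arrays, and the log scale was read from the values, which lie between 5.14 and 15.47. Per the labels' protocols, total RNA was purified on RNeasy micro columns and labelled with biotin (TotalPrep). For the scanner software, background correction and normalization the entry is "not given in the sources used here", and the values were not rescaled. Symbols were updated through gene IDs (16482 probes) and accessions (956), 913 kept the file's symbol and 1598 had none. For the 95 genes with several probes the brightest was taken. In R 4.3.3, limma 3.58.1 (lmFit, eBayes) was fitted over all 9940 features above the filter, with the 4 windows in 1 fit and, for the time course, a natural spline (4 degrees of freedom) of square-rooted minutes. Benjamini-Hochberg adjustment ran over all features at a threshold of 0.05, and genes below the filter were tested in a fit of all 19854 features. The code was tested on simulated data. The guidance genes and the lists of partners and cell type markers were chosen with earlier results of these data known. Genes are named where a window or the time course test passed, and of the partner lists the 6 with the largest late change. Alternatives were 2 scalings, 2 filters, probe means, another variance model, array weights, other windows, other curves and leaving out each array. Precision is limited by how many arrays there are. The labels name no batch.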

Additional observations from a re-analysis of the deposited data

Results flagged for a closer look

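Within the windows of 4 or 5 arrays, 90 sets of values were tested for a lone array over 30 guidance genes (those above the filter that passed over the time course or late, and the Dcc and Unc5 receptors), and 4 held one, where chance gives about 5% of sets. Plxnc1 was at 8.7288 at 720 min, while the other late arrays lay between 7.83 and 8.00. Efnb1 was at 9.2711 at 120 min, while the other arrays of the second window lay between 9.54 and 9.59. Plxnb1 was at 6.5369 at 150 min, while the other arrays of that window lay between 6.63 and 6.64. Unc5a was at 5.9733 at 15 min, while the other early arrays lay between 6.21 and 6.29.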

How the results depend on the processing

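With only the brightest probes by mean signal (a stricter filter), which left 14 of the guidance genes to test, 13 passed over the time course, 8 in the middle, 10 in the late and 7 in the late against the middle window. No other alternative moved a count by over 1.5 times, and without a filter the counts were 29, 18, 22 and 14 of 75. Leaving out 1 array at a time gave 23 to 25 calls over the time course, 4 to 7 in the second window, 14 to 16 in the middle, 16 to 20 in the late and 4 to 16 in the late against the middle window. The late difference of Draxin stayed between 3.43 and 3.60 over these fits and between 3.53 and 3.60 over the others. No window difference that was rerun reversed its direction. Reruns of single genes covered guidance genes above the filter, for the windows in which they passed. The partner genes, the cell type markers and the named genes below the filter were not rerun one by one. Calls lost with a left-out array stand beside each gene above, and besides them Plxnb1, Ephb4, Plxnb3, Sema5b, Plxnd1 and Efnb1 in the late against the middle window were lost without 240 min, and the last 4 of these also without 300 min. With the 420 min array moved to the middle window, Sema3a (0.20, limma adjusted p = 0.109), Plxna2 (0.34, adjusted p = 0.0511) and Efnb1 (-0.31, adjusted p = 0.0625) no longer passed late against early. Sema3a also did not without a filter (adjusted p = 0.0508), nor Plxna2 with the 60 min array moved to the second window (adjusted p = 0.059). In the late against the middle window, Plxnb1, Plxnb3, Efnb1 and Sema5b did not pass with 420 min moved. The causes were not tested. Probes near the lower end of the scale cannot show a small change. No paired analysis was possible because each array is a different time and the replicate numbers, given in accession order, only name the arrays.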
